A study of Mus musculus with 52 samples.

Results

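The 5 genes described here are T (Brachyury), Eomes, Gsc, Mixl1 and Mesp1, transcription factor genes switched on as the mouse epiblast enters gastrulation. They were located by symbol among 24263 gene intervals of the deposited gene table, and every enhancer centred within 100 kb of their transcription start sites (TSSs) was collected from the deposited tables of 8794 enhancers of mouse embryonic stem cells (mESCs) and 16576 enhancers of epiblast-like cells (EpiLCs). This gave 9 mESC and 16 EpiLC enhancers, at 20 distinct places, since 5 from each table overlap a partner in the other. The TSS was taken as the 5' end of the gene interval, a distance runs from there to an enhancer's centre, and upstream means against the direction of transcription. All positions are mm10, counted from 1.

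T, Eomes and the basic helix-loop-helix factor MESP1 act in the primitive streak, the furrow through which epiblast cells leave to form mesoderm and definitive endoderm. T and EOMES are T-box proteins, which share a DNA-binding domain and recognise a common core motif, while GSC and MIXL1 are paired-type homeodomain proteins of the streak and organizer. Nodal, acting through SMAD proteins and FOXH1, and Wnt, acting through TCF and LEF proteins, induce these genes in the embryo. In pluripotent cells they are known as silent genes with Polycomb-methylated promoters, poised for later use. EpiLCs are a culture model of the early post-implantation epiblast, the state that precedes their activation.

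The series holds 52 libraries, 48 from chromatin immunoprecipitation and 4 inputs (3 mESC and 1 EpiLC), with 43 from naive mESCs grown with LIF and inhibitors of GSK3 and MEK1 and 9 from EpiLCs harvested after 48 hours of differentiation, all on a C57BL6/129Sv background. Control cells (ABE) were set against clones with lysine 27 mutated in canonical H3 (cK27R) or in all H3 (pK27R), SUZ12 knockout cells, and H3.3 knockout cells without or with add-back of wild-type or K27R mutant histone. The EpiLC libraries are from control, pK27R and SUZ12 knockout cells and an input whose genotype is not labelled. The tables used here hold region coordinates alone, with 0 value columns. Signal per library was not analysed here, depth is unknown and no genotype is compared. The enhancer sets came from separate earlier publications, the EpiLC set being defined there by H3K27ac, H3K4me1 and p300 peaks. A difference between the sets therefore cannot be told apart from a difference in how each was defined. The lists are fixed and have no replicates, so counts and positions are given without a test, with the totals over all genes or all enhancers for the main counts.

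T, Eomes and Gsc each had 3 mESC enhancers within 100 kb, while Mixl1 and Mesp1 had 0. Over all gene intervals, 55.3% had at least 1 mESC enhancer in that distance, 8.31% had 3 or more, and the median was 1. A count of 3 was above that of 91.7% of intervals. In the EpiLC table Eomes and Mixl1 had 5 enhancers each, T had 3, Gsc 2 and Mesp1 1. At least 1 EpiLC enhancer was present at 5 of 5 genes against 74.0% of all intervals, and 5 or more at 2 of 5 genes against 16.5%, with a median of 2 over all intervals. The genes thus fell into 3 with enhancers from both tables and 2, Mixl1 and Mesp1, with EpiLC enhancers alone, a pattern seen in 26.1% of all intervals.

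**Figure D1:**
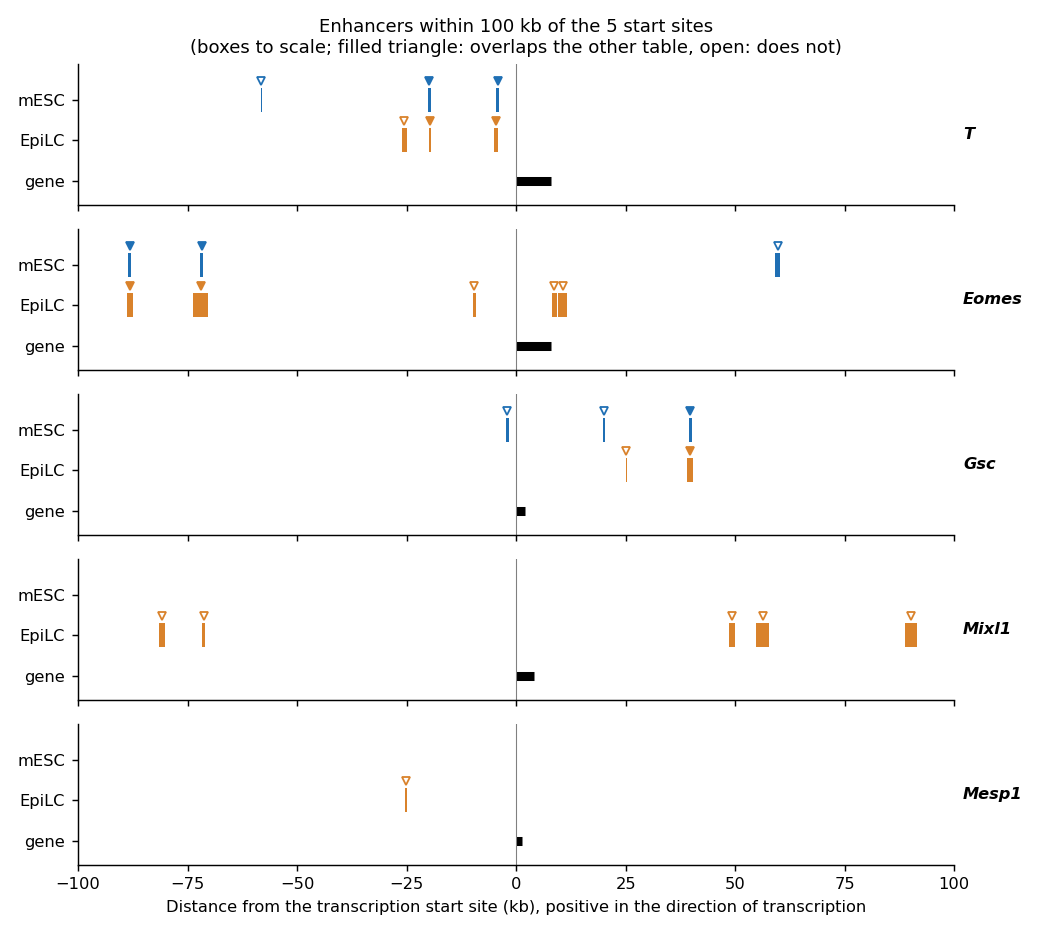
Map of the enhancers around the 5 genes, with distance from the TSS in kb on the horizontal axis and a row each for mESC enhancers, EpiLC enhancers and the gene interval, drawn to scale. T, Eomes and Gsc each carry 3 mESC boxes, while the mESC rows of Mixl1 and Mesp1 are empty.

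The enhancers also differed in which gene they lay next to. Of the 25 enhancers, 10 had the gene itself as nearest TSS of the gene table, namely 4 of 9 mESC and 6 of 16 EpiLC enhancers. Over all pairs of a gene interval and an enhancer within 100 kb, the gene was the nearest in 30.9% of mESC and 24.6% of EpiLC pairs. The 10 enhancers belonged to T (2 mESC and 2 EpiLC), Eomes (0 and 3) and Gsc (2 and 1). Among GENCODE TSSs another gene was nearer for some of them. These were the T pair at 19.9 and 19.6 kb (T2) and the 3 Eomes regions (Gm22479 or Gm33460). The Gsc region at 1.98 kb was also nearer to a TSS of Gm10000. No enhancer of Mixl1 (5 EpiLC) or Mesp1 (1 EpiLC) was nearest to it. For Mixl1 the nearest gene-table TSS was that of Lin9, Mir6904, Acbd3 or H3f3a. By distance, 2 of 9 mESC and 3 of 16 EpiLC enhancers lay within 10 kb, and 6 and 9 were upstream of the gene. Of all 25, 10 lay between 10 and 50 kb and 10 beyond 50 kb, with overlapping regions counted once in each table. Over all pairs of an interval and an enhancer within 100 kb, 51.3% (mESC) and 51.5% (EpiLC) were upstream, and 11.5% and 14.7% lay within 10 kb. By GENCODE annotation at the centre, 5 of 9 mESC and 10 of 16 EpiLC enhancers were intergenic and 3 and 6 intronic. The remaining mESC enhancer was in a noncoding exon. Of all enhancers, 44.7% in the mESC and 43.7% in the EpiLC table were intergenic, and 50.1% and 44.2% intronic. Neither table covered the TSS of any of the 5 genes. Across all intervals an mESC enhancer covered 1.16% of TSSs and an EpiLC enhancer 14.0%.

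**Figure D2:**
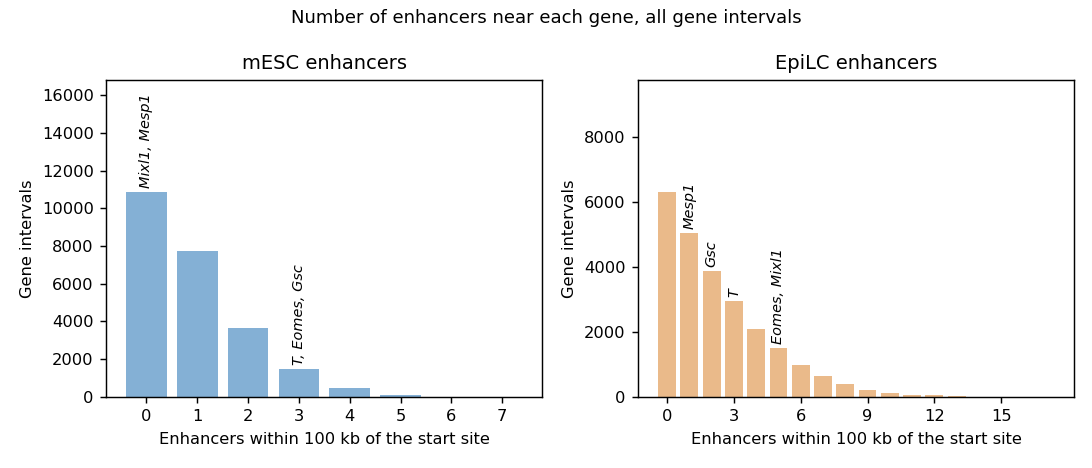
Histograms of all 24263 gene intervals by the number of mESC (left) or EpiLC (right) enhancers within 100 kb of the TSS, with the 5 genes written above their bars. T, Eomes and Gsc stand at 3 mESC enhancers, a count that 2.31% of intervals exceed, and Eomes and Mixl1 at 5 EpiLC enhancers, which 10.3% exceed.

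T, the founding T-box gene, had enhancers on its upstream side alone. Its interval lies on chromosome 17 (8434423 to 8442496, plus strand, 8074 bp), between Gm16702, whose TSS is 45.0 kb upstream, and Pde10a, 92.4 kb downstream. The element closest to T was present in both tables, as an mESC enhancer of 690 bp (8429911 to 8430600) centred 4.17 kb upstream and an EpiLC enhancer of 1025 bp (8429352 to 8430376) centred 4.56 kb upstream. They shared 466 bp, which is 67.5% of the mESC and 45.5% of the EpiLC region. Only 4.60% of gene intervals had an mESC enhancer nearer to their TSS, and 19.9% had a nearer EpiLC enhancer. This element was intergenic. Its central 300 bases in the mESC table are shown because it is the enhancer of T nearest to the gene that both tables hold, with matches to the 12 motifs searched below in capitals, here 1 ZIC match.
T, 4.17 kb upstream, chr17:8430106-8430405, plus strand: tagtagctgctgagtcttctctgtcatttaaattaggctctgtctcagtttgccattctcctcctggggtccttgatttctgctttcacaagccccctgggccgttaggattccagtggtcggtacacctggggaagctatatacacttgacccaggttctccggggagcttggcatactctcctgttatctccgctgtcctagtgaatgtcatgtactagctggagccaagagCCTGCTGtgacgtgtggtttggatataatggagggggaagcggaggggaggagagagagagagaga

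A further pair of overlapping T enhancers lay 19.9 kb upstream in the mESC table (8414233 to 8414905, 673 bp) and 19.6 kb upstream in the EpiLC table (8414577 to 8414976, 400 bp), with 329 bp in common. It was centred in an intron of T2, a protein-coding gene that runs towards T on the same strand (8355992 to 8423513). The EpiLC-only enhancer of T (8408277 to 8409601, 1325 bp, 25.5 kb upstream) and its mESC-only enhancer (8376099 to 8376467, 369 bp, 58.1 kb upstream) were also centred in T2 introns. The last of these was nearest to a TSS of T2 that lies inside that gene's full span, 3.89 kb away. It was among the shortest of its table, longer than only 2.32% of mESC enhancers. No EpiLC enhancer appeared downstream of T up to 100 kb, and the next beyond the window was 488.9 kb away. The next mESC enhancer outside was 194.6 kb away.

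Eomes, the T-box gene needed for definitive endoderm and early mesoderm, had its mESC enhancers far from the gene and its EpiLC-only enhancers close to it. The interval lies on chromosome 9 (118478189 to 118486132, plus strand, 7944 bp). Its mESC enhancers were centred 88.2 kb upstream (118389551 to 118390385, 835 bp), 71.8 kb upstream (118405958 to 118406832, 875 bp) and 59.7 kb downstream (118537344 to 118538446, 1103 bp). The upstream pair lay wholly inside EpiLC enhancers of 1400 bp (118389377 to 118390776) and 3250 bp (118404552 to 118407801), filling 59.6% and 26.9% of them. The downstream region overlapped none and was in an intron of Golga4. The pair at about 72 kb covered the TSS of Platr11, a long noncoding RNA gene annotated as a pluripotency-associated transcript (118404097 to 118406099, minus strand). It is shown as the overlapping Eomes element nearest to the gene, and its 300 central mESC bases held no match to the motifs searched.
Eomes, 71.8 kb upstream, chr9:118406246-118406545, plus strand: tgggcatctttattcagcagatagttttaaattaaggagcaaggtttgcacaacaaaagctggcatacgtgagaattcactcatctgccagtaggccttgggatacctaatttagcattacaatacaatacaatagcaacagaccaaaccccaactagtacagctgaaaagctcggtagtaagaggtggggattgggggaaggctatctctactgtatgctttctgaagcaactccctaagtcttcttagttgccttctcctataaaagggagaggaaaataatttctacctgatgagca

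The 3 enhancers nearest to Eomes were in the EpiLC table alone. They were centred 9.51 kb upstream (118468402 to 118468951, 550 bp), 8.75 kb downstream of the TSS (118486377 to 118487501, 1125 bp) and 10.6 kb downstream (118487852 to 118489751, 1900 bp). The downstream pair begins just past the end of the gene interval and was centred in an intron of Gm33460, an antisense noncoding gene (118485559 to 118489099, minus strand), whose TSS the farther one covered. No mESC enhancer lay within 50 kb of Eomes. Its nearest was 59.7 kb away, against a median of 83.6 kb over all intervals, and its nearest EpiLC enhancer 8.75 kb away, against a median of 37.2 kb. The element 8.75 kb downstream, the nearest of these to the TSS, is shown because only the EpiLC table holds it. It was chosen after its position was seen. Its capitals mark 1 match to the motif shared by OTX2 and goosecoid.
Eomes, 8.75 kb downstream, chr9:118486790-118487089, plus strand: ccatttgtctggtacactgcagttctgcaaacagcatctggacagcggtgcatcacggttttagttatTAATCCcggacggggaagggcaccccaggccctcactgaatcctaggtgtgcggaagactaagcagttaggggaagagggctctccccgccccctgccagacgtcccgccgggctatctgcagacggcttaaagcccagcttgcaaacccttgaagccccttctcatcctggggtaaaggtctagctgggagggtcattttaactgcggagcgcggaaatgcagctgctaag

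Gsc, the organizer homeobox gene, was the only member with more mESC than EpiLC enhancers. It lies on chromosome 12 (104471209 to 104473236, minus strand, 2028 bp), with 0 other gene-table TSSs upstream within 100 kb and the serpin gene Serpina3n 66.5 kb downstream. An mESC enhancer of 678 bp (104474879 to 104475556) was centred 1.98 kb upstream of the TSS, and 2.33% of intervals had one nearer. No EpiLC enhancer overlapped it. It was centred in an exon of Gm10000, a noncoding gene read in the opposite direction from the Gsc promoter region (104473331 to 104477759, plus strand). Its central 300 bases are shown because it is the enhancer nearest to any of the 5 TSSs, a choice made after its position was seen, and they held 2 matches to the ESRRB motif and 1 to the ZIC motif, in capitals. ESRRB is an orphan nuclear receptor of naive pluripotency.
Gsc, 1.98 kb upstream, chr12:104475068-104475367, plus strand: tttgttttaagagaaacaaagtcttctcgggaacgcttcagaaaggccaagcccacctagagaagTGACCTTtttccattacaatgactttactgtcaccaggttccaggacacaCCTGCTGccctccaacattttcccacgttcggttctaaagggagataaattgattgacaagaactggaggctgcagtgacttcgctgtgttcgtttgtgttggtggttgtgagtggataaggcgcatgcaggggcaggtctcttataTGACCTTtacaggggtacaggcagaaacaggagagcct

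The other Gsc enhancers were downstream and intergenic. An mESC-only enhancer of 500 bp (104452875 to 104453374) was centred 20.1 kb and an EpiLC-only enhancer of 325 bp (104447927 to 104448251) 25.1 kb from the TSS. That EpiLC enhancer is one of the shortest in its table, longer than 1.42% of regions. It is the EpiLC enhancer nearest to Gsc, and 41.4% of intervals had one nearer. The overlapping pair lay 39.8 kb downstream as an mESC enhancer of 806 bp (104433053 to 104433858) and 39.7 kb downstream as an EpiLC enhancer of 1375 bp (104432852 to 104434226), the former wholly inside the latter. Its nearest gene-table TSS was that of Serpina3n, 26.7 kb from the mESC centre. The central 300 bases of the EpiLC region are shown because it is the Gsc element common to both tables, and they held no match to the motifs searched.
Gsc, 39.7 kb downstream, chr12:104433390-104433689, plus strand: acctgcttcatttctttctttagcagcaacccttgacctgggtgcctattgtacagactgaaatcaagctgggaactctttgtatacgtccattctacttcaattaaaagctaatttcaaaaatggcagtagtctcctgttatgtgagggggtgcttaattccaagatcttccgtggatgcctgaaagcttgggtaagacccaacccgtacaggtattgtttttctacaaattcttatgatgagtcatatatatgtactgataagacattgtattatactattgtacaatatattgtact

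Mixl1, a homeobox gene of the primitive streak, had 5 EpiLC enhancers and 0 mESC enhancers, and none of the 5 overlapped an mESC enhancer. The interval lies on chromosome 1 (180693048 to 180697034, minus strand, 3987 bp), between Acbd3, 29.0 kb upstream, and Lin9, whose TSS is 55.9 kb downstream. The nearest mESC enhancer was 125.8 kb away, beyond the window and farther than in 62.3% of intervals. The nearest EpiLC enhancer, 49.3 kb away, was also farther than in 56.7% of intervals. Downstream of Mixl1, EpiLC enhancers were centred at 49.3 kb (180646977 to 180648501, 1525 bp, in an intron of Lin9), 56.2 kb (180639277 to 180642301, 3025 bp, covering the TSS of Lin9) and 90.0 kb (180605627 to 180608376, 2750 bp). Upstream they were centred at 71.3 kb (180767952 to 180768726, 775 bp, covering the TSS of the noncoding gene Gm38293) and 80.8 kb (180777102 to 180778601, 1500 bp). The last had H3f3a, which encodes histone H3.3, as its nearest gene-table TSS, 35.8 kb off. For the region at 90.0 kb the nearest GENCODE TSS was that of Parp1, 8.01 kb off. Lin9 encodes a subunit of a cell-cycle regulatory complex. The nearest Mixl1 enhancer is printed, since no overlapping one exists, and its central 300 bases held no match to the motifs searched.
Mixl1, 49.3 kb downstream, chr1:180647590-180647889, plus strand: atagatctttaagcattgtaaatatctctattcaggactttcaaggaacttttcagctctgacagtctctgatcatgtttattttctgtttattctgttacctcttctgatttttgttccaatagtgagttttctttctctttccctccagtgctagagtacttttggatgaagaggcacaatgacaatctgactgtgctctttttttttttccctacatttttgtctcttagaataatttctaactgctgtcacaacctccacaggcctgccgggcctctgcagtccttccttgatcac

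At 200 kb the count for Mixl1 grew to 14 EpiLC and 2 mESC enhancers, while T had 3 and 4, Eomes 6 and 3, Gsc 2 and 3, and Mesp1 1 and 1. The wider window of Mixl1 takes in the TSS of Lefty2 (180893108), one of the signal genes counted below. Lefty2 had 9 EpiLC and 2 mESC enhancers within 100 kb, so regions near it can count for Mixl1 too. No count over all intervals is given here for 200 kb.

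Mesp1, an early marker of cardiac mesoderm, had the sparsest surroundings, with 1 EpiLC enhancer of 525 bp and 0 mESC enhancers. It lies on chromosome 7 (79792241 to 79793590, minus strand, 1350 bp), 17.1 kb from the TSS of its paralog Mesp2, which regulates somite segmentation. The enhancer (79818477 to 79819001) was intergenic, 25.1 kb upstream of Mesp1 and 8.01 kb from the TSS of Mesp2, so that both genes have the same single region. Its nearest GENCODE TSS was that of Anpep, 6.76 kb away. Within 100 kb Mesp1 had 6 other TSSs, against a median of 4 over all intervals and 2 for Eomes, Gsc and Mixl1. The nearest mESC enhancer was 135.4 kb away, and 64.6% of intervals had one nearer. For its EpiLC enhancer that share was 41.4%. The enhancer's central 300 bases, printed as the only region near Mesp1 in either table, held no match to the motifs searched.
Mesp1, 25.1 kb upstream, chr7:79818590-79818889, plus strand: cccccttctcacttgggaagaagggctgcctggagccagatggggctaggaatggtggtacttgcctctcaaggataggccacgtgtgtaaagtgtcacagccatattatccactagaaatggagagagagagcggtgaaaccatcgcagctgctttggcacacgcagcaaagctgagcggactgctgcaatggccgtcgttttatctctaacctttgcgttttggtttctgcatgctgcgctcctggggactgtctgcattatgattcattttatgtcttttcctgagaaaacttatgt

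The overlap between the tables was then read against the whole sets. Near the 5 genes, 5 of 9 mESC enhancers overlapped an EpiLC enhancer, against 42.9% of all mESC enhancers, and 5 of 16 EpiLC enhancers overlapped an mESC enhancer, against 25.9%. An overlapping pair was present at T (2), Eomes (2) and Gsc (1), and 31.5% of all intervals had at least 1 such mESC enhancer within 100 kb. The centres of the 5 pairs were 84 to 391 bp apart. Only the Eomes pair at 88 kb and the Gsc pair shared at least 50% of both regions.

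The members' enhancers had a higher median GC content than their tables, with overlapping regions entering both medians. Median GC content was 49.1% for the 9 mESC enhancers (42.1% to 50.8%), against 45.0% over the table, with 6 of 9 above its upper quartile of 48.1%. For the 16 EpiLC enhancers it was 50.8% (40.7% to 61.2%) against 47.7%, with 6 of 16 above the upper quartile of 51.7%. The highest EpiLC values, 61.2%, 58.2% and 57.9%, were of Mixl1 regions whose nearest gene-table TSSs were those of Acbd3, H3f3a and Lin9. The ratio of observed to expected CpG dinucleotides, which falls where methylated cytosines have been lost over evolution, had a median of 0.266 in the mESC enhancers against 0.188, and of 0.371 in the EpiLC enhancers against 0.244. Among EpiLC enhancers the 3 EpiLC-only regions close to Eomes had ratios of 0.546, 0.541 and 0.564, above the upper quartile of 0.403. The highest ratio, 0.738, belonged to the region at the Lin9 promoter. At T the EpiLC ratios were lower, at 0.234, 0.224 and 0.365. Lengths were below those of the EpiLC table, with a median of 1350 bp against 1750 bp, and near those of the mESC table, with 690 bp against 711 bp.

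**Figure D3:**
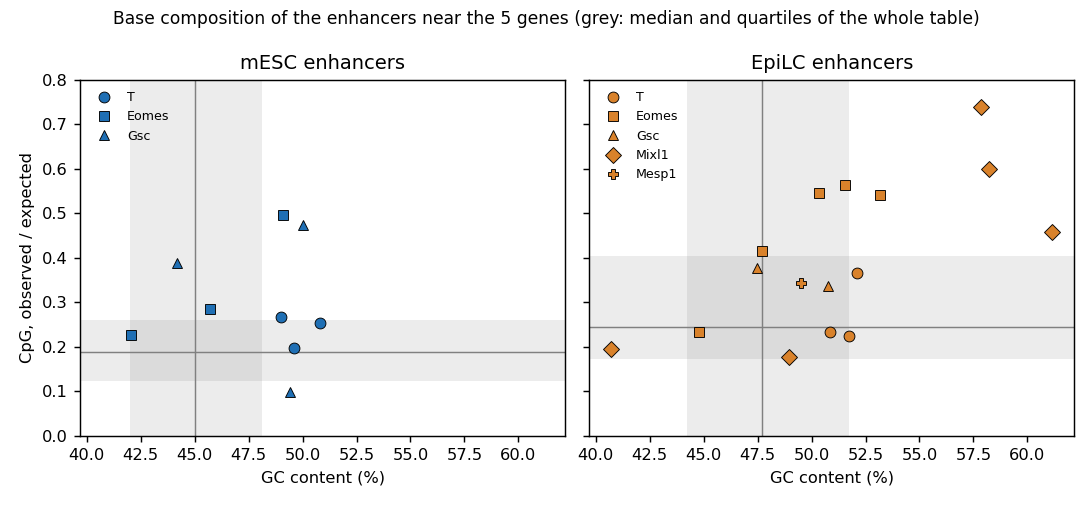
GC content in percent (horizontal) against the ratio of observed to expected CpG (vertical) for each mESC (left) and EpiLC (right) enhancer near the 5 genes, with the median and quartile range of the whole table in grey. The EpiLC enhancers close to Eomes sit above the grey band for CpG at 0.541 to 0.564, and those of T inside it.

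Matches to 12 motifs, some of factors named above and some of others, were searched for on both strands in the central 300 bases of every enhancer. The motifs were T-box GGTGTGA, FOXH1 AATCCACA, a SMAD palindrome GTCTAGAC, TCF/LEF ATCAAAG, the octamer ATGCAAAT, SOX ACAATGG, the OTX and goosecoid motif GGATTA, the GATA factor motif AGATAAG, ZIC CAGCAGG, KLF GGGNGTGG, ESRRB AAGGTCA and grainyhead-like AACCNGTT. No motif contains another, although single matches may overlap. A match to the T-box motif, which T and EOMES themselves recognise, was found in 3 of 9 mESC windows, against 5.17% of all mESC windows, and in 3 of 16 EpiLC windows, against 4.15%. All 6 windows were those of T or Eomes, which had 3 mESC windows each and 3 and 5 EpiLC windows. T-box was among the 12 motifs searched, and with 9 and 16 windows such small counts say little beside the shares over the tables. Whether either protein binds these sites was not tested. The windows of the Eomes pair at 88 kb hold the same site, which leaves 5 sites. They are printed with 17 bases on each side, read on the strand that carries GGTGTGA, with the motif in capitals.
T 58.1 kb upstream, chr17:8376268-8376308, minus strand: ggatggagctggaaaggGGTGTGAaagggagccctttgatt
T 19.7 kb upstream, chr17:8414719-8414759, plus strand: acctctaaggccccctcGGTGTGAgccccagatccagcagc
T 4.69 kb upstream, chr17:8429711-8429751, minus strand: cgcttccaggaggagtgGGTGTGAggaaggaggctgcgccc
Eomes 88.1 kb upstream, chr9:118390058-118390098, minus strand: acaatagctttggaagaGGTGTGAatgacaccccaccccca
Eomes 59.7 kb downstream, chr9:118537913-118537953, minus strand: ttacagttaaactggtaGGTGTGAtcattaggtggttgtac

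The site 19.7 kb upstream of T lies in the part that both tables share, and the site 4.69 kb upstream lies in the part that only the EpiLC region covers. Over the whole regions in place of their centres, 11 T-box sites were found, 3 at T, 6 at Eomes, 1 at Gsc, 1 at Mixl1 and 0 at Mesp1. They lay in 4 of 9 mESC regions, against 17.7% of all mESC regions, and in 7 of 16 EpiLC regions, against 25.4%. The ratio to the table was thus smaller than in the central windows. The Eomes regions are also longer in sum, covering 2813 bp in the mESC and 8225 bp in the EpiLC table, against 1732 and 2750 bp at T. A longer region has more places for a match, so these 11 are not comparable between genes.

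The other motifs were counted in the same windows, and with 9 and 16 windows their small counts also say little beside the shares over the tables. The octamer was in 0 of 9 mESC and 0 of 16 EpiLC windows, against 8.78% and 3.37% over the tables, and the SOX motif in 0 and 0, against 10.9% and 5.19%. The ESRRB motif was in 1 of 9 mESC windows, the one beside Gsc, against 12.0%, and in 0 of 16 EpiLC windows, against 6.42%. The ZIC motif was in 3 of 9 and 3 of 16 windows, against 13.0% and 14.7%, at T, Gsc and Eomes. Of the motifs for inducing signals, TCF/LEF was in 1 of 9 and 1 of 16 windows (6.64% and 4.27% over the tables), at T and Gsc, FOXH1 in 0 of 9 and 1 of 16 (1.64% and 1.63%), at Mixl1, and the SMAD palindrome in 0 and 0 (0.364% and 0.296%). The OTX and goosecoid motif was in 1 of 9 and 1 of 16 (13.2% and 12.0%), KLF in 1 and 2 (15.4% and 13.4%), GATA in 0 and 0 (3.91% and 3.63%) and the grainyhead-like motif in 0 and 0 (2.59% and 3.22%). At least 1 of the 12 motifs was in 6 of 9 mESC and 7 of 16 EpiLC windows, against 62.7% and 52.6% over the tables.

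Promoter sequences in RefSeq's GRCm38.p6 table, 250 bases before to 50 after the start, were matched for T, Eomes, Gsc and Mesp1. Their CpG content differed widely. The Gsc promoter had 25 CpG dinucleotides and an observed to expected ratio of 0.934, T had 17 and 0.607, Eomes 10 and 0.607, and Mesp1 4 and 0.174, against a median of 7 and 0.384 over 32851 promoters. The Gsc promoter, the most CpG-rich, is printed with its CpG dinucleotides in capitals, and that of Mesp1, the poorest, with motif matches in capitals, a choice made after these values were seen.
Gsc promoter, chr12:104473187-104473486, minus strand: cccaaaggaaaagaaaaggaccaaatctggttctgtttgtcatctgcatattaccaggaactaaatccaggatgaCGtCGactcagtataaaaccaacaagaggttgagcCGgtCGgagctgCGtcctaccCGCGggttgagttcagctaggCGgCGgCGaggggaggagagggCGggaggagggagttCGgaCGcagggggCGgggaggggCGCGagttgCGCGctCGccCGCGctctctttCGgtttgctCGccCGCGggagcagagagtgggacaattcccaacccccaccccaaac
Mesp1 promoter, chr7:79793541-79793840, minus strand: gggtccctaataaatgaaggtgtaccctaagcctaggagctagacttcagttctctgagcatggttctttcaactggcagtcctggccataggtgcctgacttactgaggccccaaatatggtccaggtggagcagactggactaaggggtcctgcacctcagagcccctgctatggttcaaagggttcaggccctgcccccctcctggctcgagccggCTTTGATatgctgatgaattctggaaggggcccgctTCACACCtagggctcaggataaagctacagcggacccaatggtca

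Of these 4 promoters, that of Mesp1 alone held any match to the 12 motifs. A TCF/LEF match began 31 bases before the start, and a T-box match 5 bases after it. Among all 32851 promoters the T-box motif was found in 3.98% and the TCF/LEF motif in 3.73%.

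Related genes were counted in the same way, from 3 lists made with earlier results of these data known. Over all intervals, 55.3% had an mESC enhancer within 100 kb, 74.0% an EpiLC enhancer and 31.5% an mESC enhancer that overlaps an EpiLC one. Of 15 other T-box family genes, 9 had an mESC enhancer within 100 kb, 10 an EpiLC enhancer and 6 an overlapping pair. Tbx6, a regulator of paraxial mesoderm, had 0 mESC and 7 EpiLC enhancers, Tbx3, a factor of naive pluripotency, 3 and 3, and the MAX-binding T-box gene Mga 1 and 4. Of 18 other streak, mesoderm and endoderm factors, 10 had mESC and 17 had EpiLC enhancers, and 4 had an overlapping pair. Otx2, a homeobox gene of the epiblast and head, had 5 and 8, and the zinc-finger gene Zic2 had 4 and 9. Of 16 inducing signals and their effectors, 9 had mESC and 15 EpiLC enhancers, and 7 an overlapping pair. Tcf7l1, a Wnt effector and repressor, had 3 and 9, the fibroblast growth factor gene Fgf4 3 and 8, and the Nodal antagonist gene Lefty1 2 and 9. Fgf4 and Lefty1 tied at 11 enhancers with Lefty2 and Nodal, and ties were taken by name. Lefty1 and Lefty2 are neighbours on chromosome 1, as are Tbx2 and Tbx4 on chromosome 11. Their windows overlap, so a region can count for both genes of such a pair.

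The median EpiLC count was 3 for the 5 genes, 2 for the T-box list, 2 for the streak, mesoderm and endoderm list and 6 for the inducing signals, beside 2 over all intervals. The median mESC count was 3 for the 5 genes and 1, 1 and 2 for the lists, beside 1 over all intervals. An EpiLC enhancer covered the TSS of 9 of the 16 signal genes, 1 of 15 T-box genes and 3 of 18 other factors and 0 of the 5 genes, beside 14.0% of all intervals. Likeness was measured as equality of the 4 counts of overlapping and table-specific enhancers. The 4 counts of Mesp1 were shared by 7 of 49 listed genes, the first in list order being Tbx19, Tbx22 and Mesp2, and by 2570 other intervals, or 10.6% of all. No listed gene equalled T, Gsc or Mixl1, whose counts 105, 102 and 336 other intervals shared, or 0.433%, 0.420% and 1.38%.

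**Figure D4:**
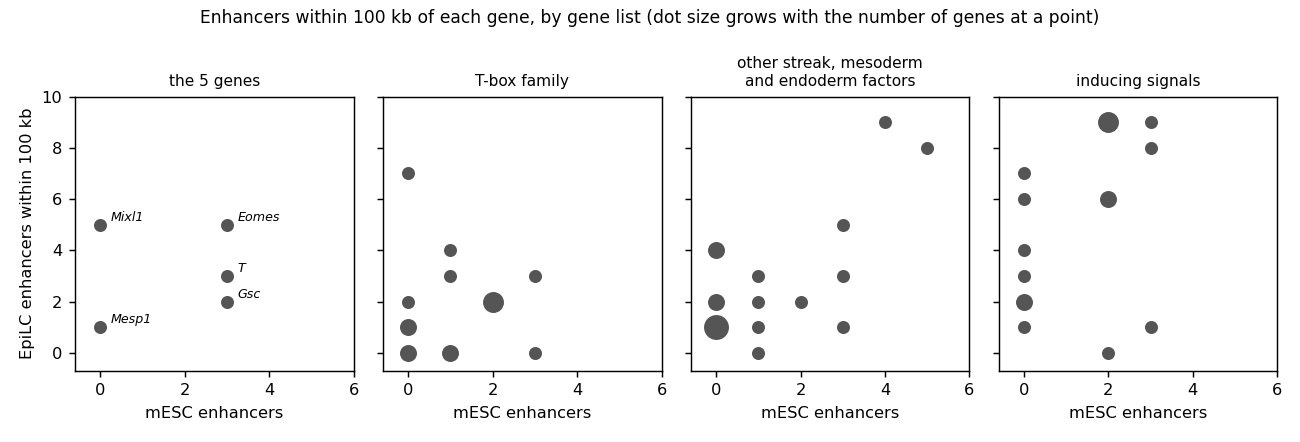
Number of mESC (horizontal) and EpiLC (vertical) enhancers within 100 kb for the 5 genes and for the genes of each of 3 lists, with larger dots where several genes share a point. Mixl1 and Mesp1 lie on the left edge at 0 mESC enhancers, and 9 of 16 inducing signals lie above 5 EpiLC enhancers, the highest count among the 5 genes.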

How the data were processed

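The deposited tables are 3 region sets whose only measured columns are mm10 start and end positions. Per the series' design text, the authors lifted both enhancer sets over to mm10 and took the gene set from earlier work. The liftover tool is not given in the sources used here. Builds and tools come from the submitters' processing notes, which name the builds mm10 and dm6 and the tools Trimmomatic 0.38, Bowtie2 2.3.4.1 and bedtools 2.29.2, with no role given. Starts were read as counting from 0 and printed with 1 added. After removal of 120 duplicate rows and 19 rows off the assembled chromosomes, 24263 gene intervals remained, of which 23798 were named by identical ends in RefSeq or GENCODE M21, or where shared bases made up 0.8 or more of the combined span. T, Gsc and Mesp1 matched RefSeq exactly. Eomes and Mixl1 matched by shared length, with TSSs 3 and 0 bp from RefSeq.

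Overlap meant at least 1 bp. Sequence was read from GRCm38.p6 with pysam 0.24.0, under Python 3.11.15 and pandas 2.3.3. Counting, overlap and motif functions were tested on simulated data. No test was run. The named genes are the 5 genes, their nearest gene-table neighbours, the nearest genes of their enhancers, the 3 genes of each list with most enhancers, and listed genes with the same 4 counts, at most 3 a gene; 1 result under this rule is not reported here. GENCODE genes at or nearest to the enhancers, and the printed promoters, were added after their positions and values were seen. The members and lists were chosen with earlier results of these data known. Alternatives varied the window, TSS, overlap rule, counting of starts, promoter regions, the first 231 mESC rows and the motif window.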

Additional observations from a re-analysis of the deposited data

How the results depend on the processing

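The totals of 9 mESC and 16 EpiLC enhancers depended on the distance allowed and on which gene an enhancer was counted for. Within 50 kb there were 5 and 10, with none of the mESC enhancers of Eomes left, and 26 EpiLC enhancers lay within 200 kb. Counting only enhancers whose nearest gene-table TSS was the gene itself left 4 mESC and 6 EpiLC enhancers, and 0 for Mixl1 and Mesp1. The 5 overlapping mESC and 5 overlapping EpiLC enhancers became 2 and 2 when the overlap had to fill 50% of each region, and 3 and 3 within 50 kb. At least 1 of the 12 motifs was found in 13 of 25 central windows and in 23 of 25 whole regions, beside 86.7% of all whole mESC and 90.4% of all whole EpiLC regions. The other 19 alternatives for these totals stayed within 1.5 times of the value given. No paired analysis was possible because the tables hold no values per library. Depth is unknown, and the tables list regions without a score, so a region just below the threshold of either publication cannot be told from an absent one.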

Other observations

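Lower-case bases in the RefSeq genome, which mark repeats and low-complexity sequence, made up a median of 11.4% of the 9 mESC enhancers near the 5 genes and 9.80% of the 16 EpiLC enhancers, against 17.6% and 19.7% over the tables. In the EpiLC set 9 of 16 fell below the table's lower quartile of 11.4%. The highest shares were 46.3% in the mESC region at Platr11 near Eomes, 38.5% in the EpiLC region of the Lin9 intron near Mixl1 and 37.9% in the mESC region 58.1 kb upstream of T.

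Of the 25 enhancers, 6 were centred within 1 kb of a GENCODE TSS, where the start of every annotated transcript counted. These were 2 of 9 mESC and 4 of 16 EpiLC enhancers, beside 8.92% and 25.7% over the tables. They were the mESC and EpiLC regions at Platr11, the mESC region beside Gsc at Gm10000, and the EpiLC regions at Gm33460 downstream of Eomes, Gm38293 upstream of Mixl1, and the protein-coding Lin9.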
